A study of Sus scrofa with 6 samples.

Results

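The genes described here mark cholinergic cells and motor neurons, CHAT, SLC18A3, SLC5A7, ACHE, ISL1, ISL2, MNX1, CHODL, UTS2B and ESRRG. They were chosen by name, with earlier results of these data known, and all 10 had a row among the 28965 genes of the files. RNA was sequenced from the cervical spinal cord of 6 male pigs (Sus scrofa) aged 140 days, 1 library per animal. Maternal deletion animals, 3 in number, carried a deletion of UBE3A on the allele from the mother, and the 3 others were wildtype. The product of UBE3A is a ubiquitin ligase, expressed in neurons mainly from the maternal allele, and the comparison asks how RNA levels in the cord differ without that copy. The extent of the deletion, the cells in which it acts, the breed and the segment of the cord are not stated in the sources used here. Every library measured cervical cord tissue in bulk. The number of motor neurons, the RNA per motor neuron and the part of the cord that was sampled therefore cannot be told apart.

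Motor neurons of the ventral horn send their axons out of the cord to muscle and release acetylcholine there. They make the transmitter with choline acetyltransferase, load it into vesicles, take choline back up after its breakdown, and are specified by LIM and other homeodomain factors whose expression persists in part in the adult. The cord also holds a few other cholinergic neurons, including the partition cells that contact motor neurons through C-boutons, so the acetylcholine genes do not mark motor neurons alone. None of the 10 genes is read here as a marker of 1 cell class alone.

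All 10 genes had a higher mean in the maternal deletion libraries than in the wild-type ones, by between 2.75-fold for ACHE and 9.80-fold for SLC5A7 as a ratio of mean counts-per-million (CPM, scaled by TMM). In 9 of them the 3 deletion levels all lay above the 3 wild-type levels, UTS2B being the exception. None passed the test across all genes. The adjusted p ranged from 0.0914 for ACHE to 0.2002 for UTS2B (edgeR quasi-likelihood test, Benjamini-Hochberg adjustment over 14566 genes). Over all tested genes 0.178% were called higher and 0.844% lower, and 15.2% had groups that did not overlap with the deletion group higher. All 10 had an unadjusted p under 0.05 in that direction, against 11.1% of tested genes. The median log2 fold change was 2.58 over the 10 genes and 0.05 over all tested genes, of which 56.7% were above 0 and 0.824% at or above the value of ACHE. Because the 10 genes were chosen with earlier results of these data known, these contrasts with all tested genes are a description.

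**Figure D1:**
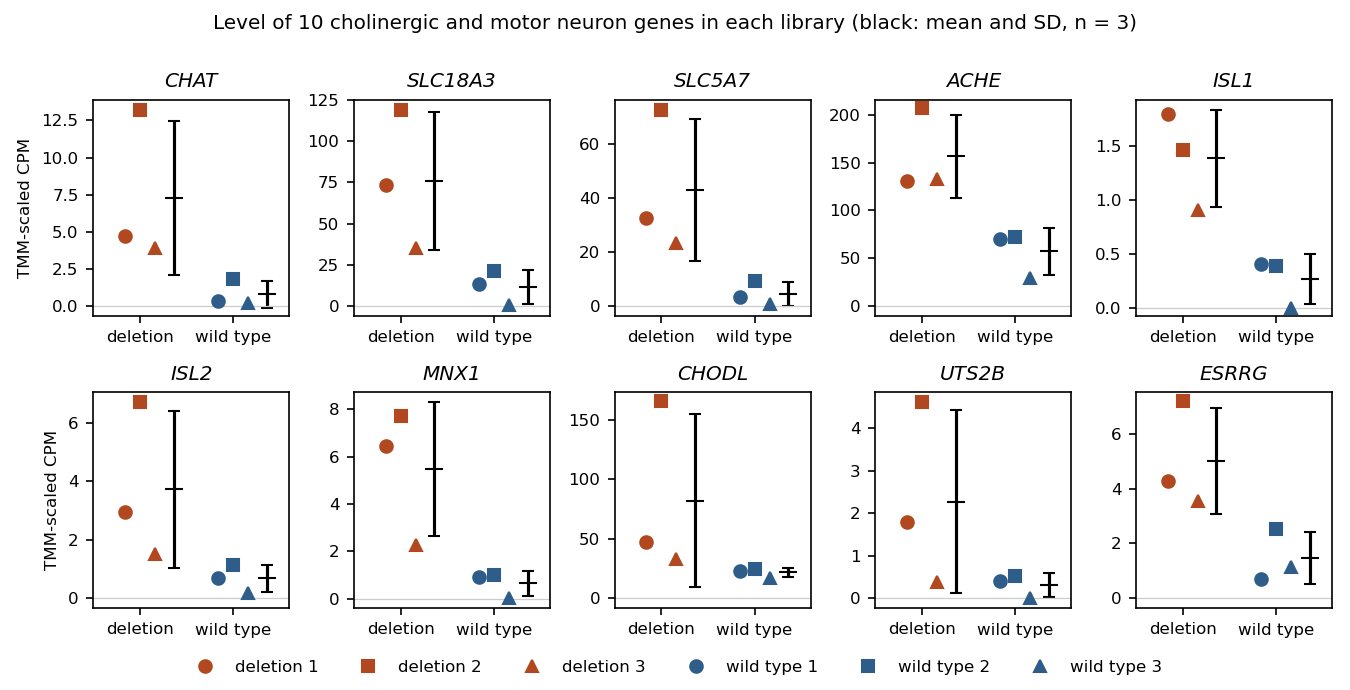
TMM-scaled CPM of each of the 10 genes (y axis, a scale of its own for each gene), with maternal deletion libraries on the left and wild-type libraries on the right; marks are replicates 1 to 3, and black bars are the mean and SD (n = 3). Deletion replicate 2 stands highest in 9 of the 10 panels, and the deletion and wild-type points overlap for UTS2B alone.

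The libraries held 17181003 to 22492366 exon reads. UBE3A stood at 21.4, 27.1 and 21.4 CPM in deletion replicates 1 to 3, against 57.0, 65.5 and 60.6 CPM in wild-type replicates 1 to 3, so each library carried the UBE3A level of its label (log2 fold change -1.39, edgeR quasi-likelihood adjusted p 0.0253). Mature oligodendrocyte markers summed to between 88463 and 131746 CPM in deletion libraries and between 77107 and 134130 CPM in wild-type libraries, and genes of HOX paralogs 4 to 8 were measured in all 6. Wild-type replicate 3 stood apart. Its HOXC8 level was 1.97 CPM where the other 5 libraries had 23.2 to 32.1 CPM, and 5.88% of its reads were mitochondrial where the others had 9.01 to 12.4%. Its mean over 20 general neuron genes was the lowest of all. Results for the 10 genes are therefore given with and without it.

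Among the genes of acetylcholine synthesis and release, CHAT (ENSSSCG00000010392) encodes choline acetyltransferase, the enzyme that makes the transmitter. It stood at 4.69, 13.2 and 3.89 CPM in deletion replicates 1 to 3, against 0.293, 1.82 and 0.184 CPM in wild-type replicates 1 to 3. The lowest deletion level was 2.13 times the highest wild-type level, although wild-type replicates 1 and 3 rested on only 5 and 4 reads. Means were 7.27 ± 5.17 CPM in deletion and 0.767 ± 0.916 CPM in wild-type animals (SD, n = 3 each). On the log2 scale the difference was 3.19 (SE 0.84; 95% interval 1.23 to 5.15; edgeR quasi-likelihood adjusted p 0.101).

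SLC18A3 (ENSSSCG00000022274) encodes VAChT, the transporter that fills synaptic vesicles with acetylcholine. Its levels were 73.2, 119 and 35.1 CPM in deletion replicates 1 to 3, against 13.5, 20.8 and 0.505 CPM in wild-type replicates 1 to 3. Wild-type replicate 3 had 11 reads where the other wild-type libraries had 230 and 480, a spread within wild type of 41.3-fold that none of the other genes with reads in every library reached. The fitted log2 difference was 2.71 (SE 0.99; edgeR quasi-likelihood adjusted p 0.193), and 2.07 without wild-type replicate 3.

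SLC5A7 (ENSSSCG00000008140) encodes CHT1, the high-affinity transporter that returns choline to the nerve ending. It measured 32.7, 72.8 and 23.2 CPM in deletion replicates 1 to 3, against 3.29, 9.29 and 0.551 CPM in wild-type replicates 1 to 3. The lowest deletion level was 2.49 times the highest wild-type level, the widest gap among the 10 genes. The means were 42.9 ± 26.3 CPM in deletion and 4.38 ± 4.47 CPM in wild type (SD, n = 3 each), and the log2 fold change was 3.28 (SE 0.84; edgeR quasi-likelihood adjusted p 0.0995).

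ACHE (ENSSSCG00000030303) encodes acetylcholinesterase, which breaks the transmitter down and is also made by neurons that receive cholinergic input. Levels were 130, 207 and 133 CPM in deletion replicates 1 to 3, against 70.4, 71.9 and 28.9 CPM in wild-type replicates 1 to 3. It had the smallest difference of the 10 genes and also the smallest standard error, at 1.46 on the log2 scale (SE 0.36; 95% interval 0.62 to 2.29; edgeR quasi-likelihood adjusted p 0.0914). Without wild-type replicate 3 it was 1.07 and passed the threshold (edgeR quasi-likelihood adjusted p 0.0440), where 0.809% of tested genes were called higher. Over the leave-one-out fits its adjusted p ran up to 0.291.

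The homeodomain transcription factors ISL1, ISL2 and MNX1 had fewer reads than SLC18A3, SLC5A7 and ACHE in every library. ISL1 (ENSSSCG00000016883), a LIM homeodomain factor that in mouse acts with LHX3 to specify motor neurons, had 36, 28 and 21 reads in deletion replicates 1 to 3, against 7, 9 and 0 reads in wild-type replicates 1 to 3. These were 1.80, 1.47 and 0.907 CPM in deletion against 0.411, 0.391 and 0 CPM in wild type, and a count of 0 in wild-type replicate 3 allows up to 0.141 CPM of that library's total. Deletion and wild-type libraries did not overlap, and the log2 fold change was 2.38 (SE 0.79; edgeR quasi-likelihood adjusted p 0.153). Its paralog ISL2 (ENSSSCG00000033348) stood at 2.95, 6.72 and 1.51 CPM in deletion replicates 1 to 3, against 0.704, 1.13 and 0.184 CPM in wild-type replicates 1 to 3. Wild-type replicate 3 held 4 ISL2 reads. The ISL2 groups did not overlap either, by the narrowest gap of the 9 genes, 1.34-fold (log2 fold change 2.45, SE 0.73; edgeR quasi-likelihood adjusted p 0.122).

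MNX1 (ENSSSCG00000016410), known as HB9, is a homeodomain factor that in mouse keeps motor neurons from taking on interneuron features. It measured 6.44, 7.71 and 2.29 CPM in deletion replicates 1 to 3, against 0.939, 0.998 and 0.0459 CPM in wild-type replicates 1 to 3. Wild-type replicate 3 held a single MNX1 read, and deletion replicate 3 stood well below the other deletion libraries. The log2 fold change was 3.05 (SE 0.79; 95% interval 1.204 to 4.90; edgeR quasi-likelihood adjusted p 0.0989), and 2.42 without wild-type replicate 3.

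The remaining genes are known from subsets of motor neurons. CHODL (ENSSSCG00000012018) encodes chondrolectin, a membrane lectin that in mouse marks fast alpha motor neurons. Its levels were 47.6, 166 and 33.3 CPM in deletion replicates 1 to 3, against 23.1, 24.7 and 17.3 CPM in wild-type replicates 1 to 3. The wild-type libraries lay within 1.43-fold of each other, the tightest wild-type spread of the 10 genes, while deletion replicate 2 was 4.98 times deletion replicate 3. At 1.92, its log2 fold change (SE 0.58; edgeR quasi-likelihood adjusted p 0.128) became 0.90 without deletion replicate 2.

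ESRRG (ENSSSCG00000010814) encodes an orphan nuclear receptor, ERR-gamma, that in mouse is high in gamma motor neurons, which innervate muscle spindles, and is present in other neurons as well. It stood at 4.29, 7.19 and 3.54 CPM in deletion replicates 1 to 3, against 0.704, 2.52 and 1.15 CPM in wild-type replicates 1 to 3. Here wild-type replicate 1, not 3, was the lowest library, with 12 reads. This was a log2 difference of 1.76 (SE 0.49; edgeR quasi-likelihood adjusted p 0.110).

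UTS2B (ENSSSCG00000033951) encodes the precursor of urotensin-related peptide, a small peptide hormone found in motor neurons of rodents. It had 36, 88 and 9 reads in deletion replicates 1 to 3, against 7, 12 and 0 in wild-type replicates 1 to 3. At 0.389 CPM, deletion replicate 3 lay below wild-type replicates 1 and 2, which had 0.411 and 0.521 CPM, so the groups overlapped. Its log2 fold change, 2.84, had the largest standard error of the 10 (SE 1.09; edgeR quasi-likelihood adjusted p 0.2002). A two-sided exact permutation test of the 6 levels gave p = 0.3 for UTS2B and p = 0.1, the smallest that 3 against 3 allows, for each of the other 9.

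**Figure D2:**
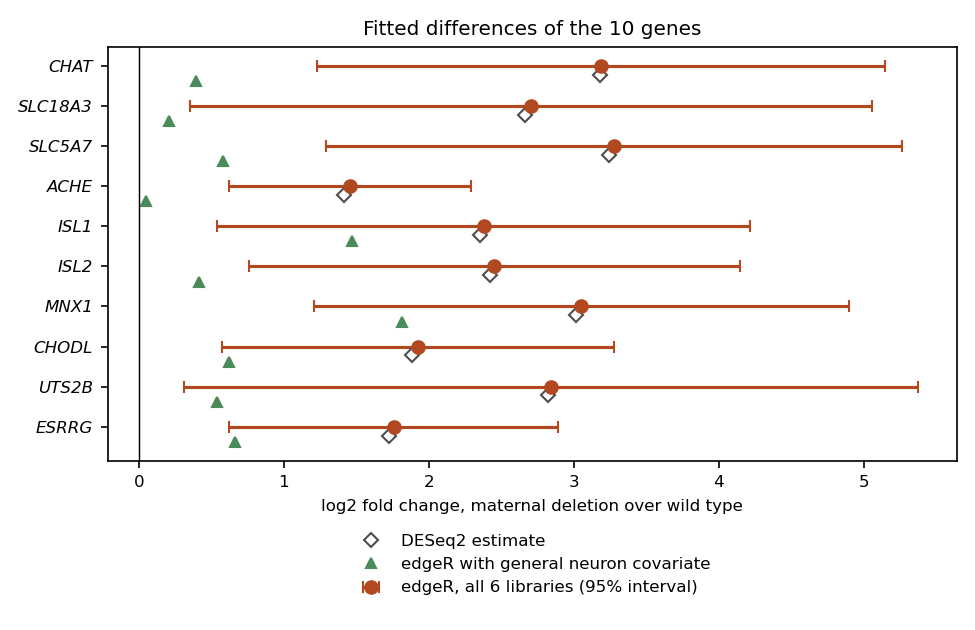
Log2 fold change of maternal deletion over wild type (x axis) for each gene, from edgeR with its 95% interval (circles), from DESeq2 (diamonds) and from edgeR with the mean of the general neuron genes as a covariate (triangles). All point estimates lie above 0, and with the covariate they lie between 0.05 for ACHE and 1.81 for MNX1.

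The calls rested on the tool. DESeq2 called 6 of the 10 higher, namely CHAT, SLC5A7, ACHE, ISL2, MNX1 and ESRRG, at adjusted p from 8.60e-04 to 0.0318, where it called 3.84% of the genes with an adjusted p higher and 5.3% lower. For SLC18A3, CHODL, UTS2B and ISL1 the DESeq2 adjusted p was 0.191, 0.0733, 0.0602 and 0.0576. Limma voom with quality weights called none of the 10, with ACHE closest at an adjusted p of 0.0554, and called 0.652% of tested genes higher and 2.4% lower. The authors' deposited table lists all 10 as higher, from 2.78-fold for ACHE to 9.90-fold for SLC5A7, at false discovery rates from 3.43e-08 to 0.0131. Of its genes with a false discovery rate, 3.39% are called higher and 3.81% lower in the authors' deposited table, whose test is not stated in the sources used here.

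A filter on low counts also bears on the list. Every gene was kept, but only 5 of the 10 (SLC18A3, SLC5A7, ACHE, CHODL and ESRRG) reached the filter's level of 0.470 CPM in all 3 wild-type libraries. ISL1 reached it in none of them and was kept through the deletion libraries alone. CHAT and UTS2B reached it in 1 wild-type library each, and ISL2 and MNX1 in 2 each. These genes too needed deletion libraries to be kept, so the counts that include them are a description.

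The order of the libraries inside a group was much the same for most of the genes. Deletion replicate 2 was the highest deletion library for 9 of the 10 genes, ISL1 being the exception, and deletion replicate 3 was the lowest for 9, ACHE being the exception. Among wild-type animals replicate 2 was the highest for 9 (not ISL1) and replicate 3 the lowest for 9 (not ESRRG). The mean log2 CPM over the 10 genes was 3.44, 4.34 and 2.66 in deletion replicates 1 to 3, against 1.23, 1.94 and -0.53 in wild-type replicates 1 to 3. The distance between the highest and lowest wild-type library was thus larger than the distance between the lowest deletion and the highest wild-type library.

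**Figure D3:**
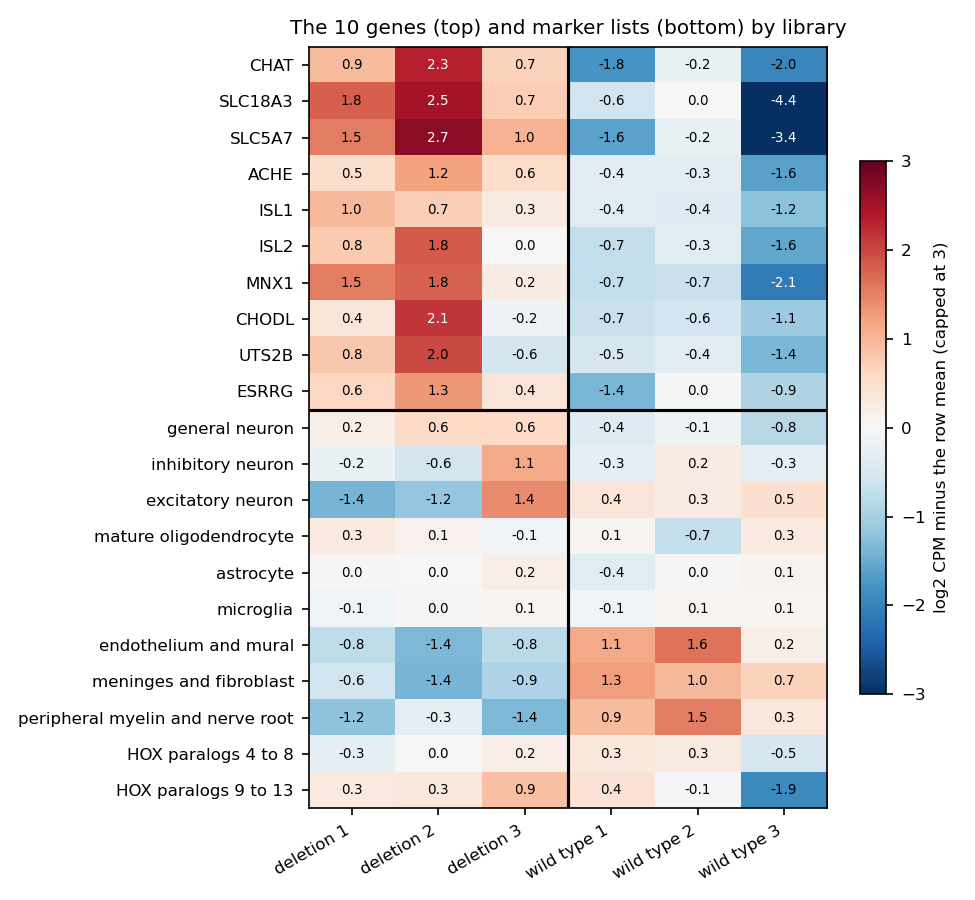
Log2 CPM minus the mean of its row, for the 10 genes (top; 0.5 CPM added) and for the mean of 11 marker lists (bottom), by library; the printed number is the value, and colours are capped at 3 in either direction. Wild-type replicate 3 is lowest for most of the 10 genes and for HOX paralogs 9 to 13, and excitatory neuron genes are highest in deletion replicate 3.

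Leaving out each library in turn kept every log2 fold change above 0. Without wild-type replicate 3 CHAT gave 2.63, SLC5A7 2.67, ISL1 1.72, ISL2 1.92, CHODL 1.71, UTS2B 2.18 and ESRRG 1.53. The median of the 10 was then 1.99, and without deletion replicate 2 it was 2.01. The widest excursions were those of CHAT and SLC5A7 without wild-type replicate 2, at 4.90 and 4.51. Between the 2 animals with ID prefix 14, 1 of each genotype, the ratio of deletion to wild type ran from 1.85 for ACHE to 16.001 for CHAT. Among those with ID prefix 15, 2 of each genotype, the ratio of means ran from 2.93 for ESRRG to 9.75 for SLC5A7. What the prefix stands for is not stated. As a block it left 0 of the 10 past the threshold, with 9 at an unadjusted p under 0.05 (edgeR quasi-likelihood). Of all 14566 tested genes 0 were then called higher, and 1551 were higher at that unadjusted p. The prefix 15 animals alone gave 0 and 4 of the 10, beside 0 and 669 of 14690 tested genes.

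**Figure D4:**
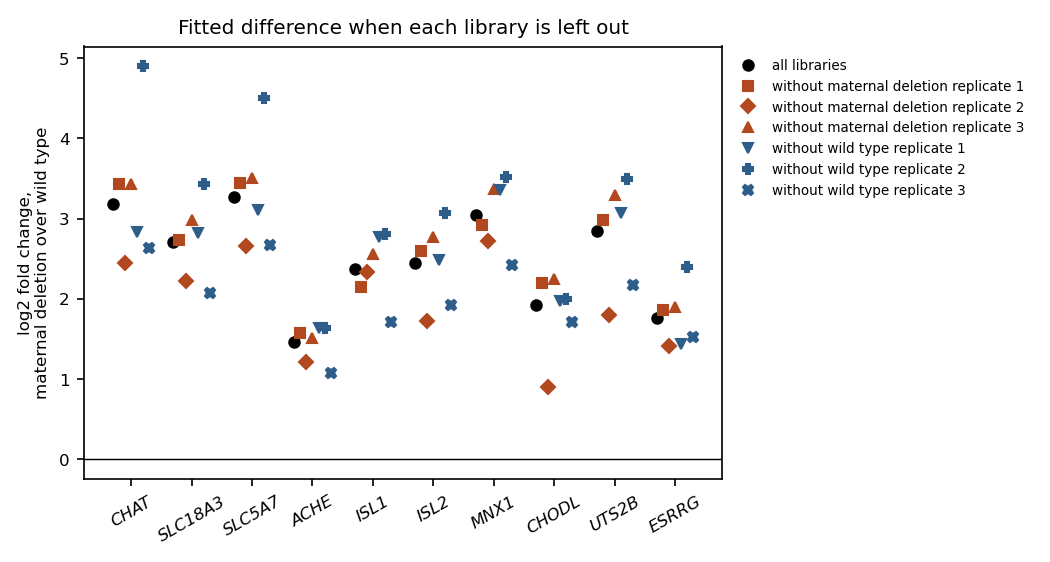
Log2 fold change of maternal deletion over wild type (y axis) for each gene with all libraries (black) and with 1 library left out (brown for a deletion library, blue for a wild-type library). No estimate crosses 0, and CHODL without deletion replicate 2 is the lowest point at 0.90.

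Levels were compared between genes on the authors' TPM values, which correct for gene length. In deletion animals SLC18A3 and ACHE led with 129 ± 66.4 and 100.4 ± 23.6 TPM, followed by CHODL with 35.7 ± 30.2 and SLC5A7 with 35.0 ± 19.9 TPM (SD, n = 3 each). MNX1 followed with 12.3 ± 5.96 TPM, CHAT with 9.21 ± 6.16, UTS2B with 5.70 ± 5.26, ISL2 with 5.34 ± 3.64, ESRRG with 4.23 ± 1.43 and ISL1 with 0.898 ± 0.268 TPM. In wild-type animals ACHE led with 37.5 ± 13.6 TPM, ahead of SLC18A3 with 20.0 ± 18.2, CHODL with 10.0 ± 1.19 and SLC5A7 with 3.69 ± 3.85 TPM. The other 6 lay between 0.171 TPM for ISL1 and 1.49 TPM for MNX1. Many neighbours in these orders lie within each other's spread. SLC18A3 exceeded ACHE in 2 of 3 deletion libraries and in 0 of 3 wild-type libraries, and CHODL exceeded SLC5A7 in 1 of 3 deletion libraries and in 3 of 3 wild-type libraries, whereas ACHE exceeded CHODL in all 6 libraries.

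CHAT and SLC18A3 are neighbours in the RefSeq annotation of assembly Sscrofa11.1, and in mammals they form the cholinergic gene locus, with transcripts that can share 5′ exons. How the authors assigned reads of shared exons is not stated in the sources used here. Per length, CHAT stood at 4.80, 8.29 and 8.29% of SLC18A3 in deletion replicates 1 to 3, against 1.63, 6.54 and 27.2% in wild-type replicates 1 to 3. The exact binomial 95% intervals of the wild-type values were 0.523 to 3.85, 4.66 to 8.98 and 6.32 to 91.8%, and they cover counting error only. The ratio in wild-type replicate 2 thus lay among those of the deletion libraries, while replicate 1 lay below and replicate 3 above them. ISL1 stood at 27.1, 9.70 and 26.6% of ISL2 per length in deletion replicates 1 to 3, and at 25.9 and 15.3% in wild-type replicates 1 and 2, with overlapping groups.

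Other genes tied to motor neurons gave a mixed picture. Of 24 on the list, 20 had a row and 19 were tested; none passed the edgeR threshold in either direction, 16 had a positive and 3 a negative log2 fold change, and the median was 0.41. At an unadjusted p under 0.05 edgeR had 8 higher and 2 lower, and DESeq2 called 4 higher and 2 lower. RET, the receptor tyrosine kinase for GDNF family ligands, stood at 109 ± 56.1 CPM in deletion and 24.6 ± 11.4 CPM in wild type (SD, n = 3 each; log2 fold change 2.15, SE 0.45, edgeR quasi-likelihood adjusted p 0.0719). GFRA1, its co-receptor, and LHX4, a LIM factor of motor neurons, both chosen after their values were seen, gave 1.41 (SE 0.31) and 3.34 (SE 0.81). UTS2, the urotensin paralog of UTS2B, also chosen after its values were seen, gave 2.91 (SE 0.89).

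Not every motor neuron gene was higher. ALDH1A2, the retinoic acid enzyme of limb-innervating motor neurons that meningeal cells also make, averaged 3.19 ± 0.232 CPM in deletion and 9.88 ± 4.07 CPM in wild type (SD, n = 3 each), or -1.62 on the log2 scale (SE 0.32; edgeR quasi-likelihood adjusted p 0.0602). FOXP1, a factor of limb motor columns in mouse that many other cells express and that was chosen after its values were seen, gave -0.59 (SE 0.16; edgeR quasi-likelihood adjusted p 0.105). By contrast WNT7A, described in mouse gamma motor neurons, was higher in deletion without overlap, at 0.67 (SE 0.14; edgeR quasi-likelihood adjusted p 0.0675, DESeq2 adjusted p 0.00756). SPP1, which encodes osteopontin and was also chosen after its values were seen, stood at 542, 579 and 399 CPM in deletion replicates 1 to 3, against 510, 409 and 525 CPM in wild-type replicates 1 to 3, so the groups overlapped.

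**Figure D5:**
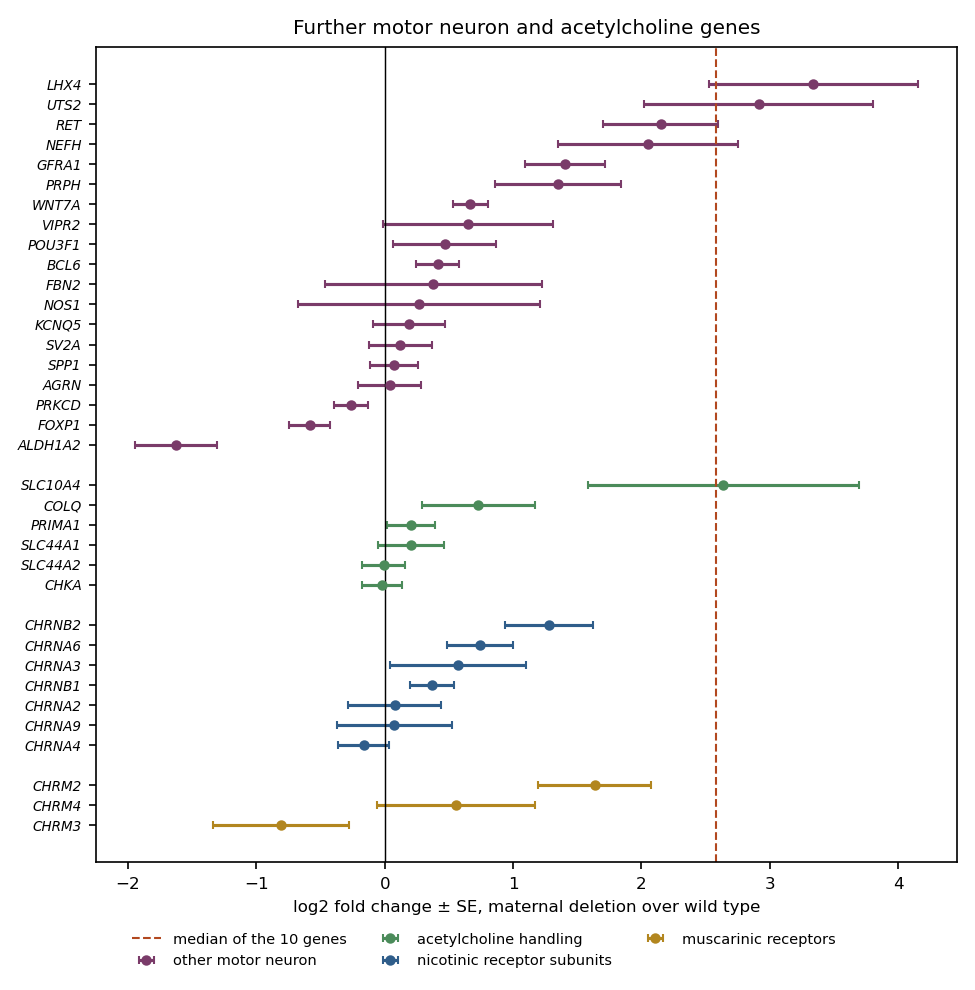
Log2 fold change of maternal deletion over wild type with its SE (x axis) for the tested genes of 4 lists, other motor neuron genes, acetylcholine handling, nicotinic subunits and muscarinic receptors; the dashed line is the median of the 10 genes, 2.58. LHX4, UTS2 and SLC10A4 lie at or beyond that line, and most of the others lie nearer to 0.

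Genes that handle or receive acetylcholine outside the 10 mostly lay nearer to 0. Of 6 tested genes of acetylcholine and choline handling none passed the edgeR threshold, 1 had an unadjusted p under 0.05, DESeq2 called 0, and the median was 0.20. SLC10A4, a vesicle protein of cholinergic and monoaminergic neurons, had 57.7, 142 and 29.2 CPM in deletion replicates 1 to 3, against 12.3, 23.8 and 0.597 CPM in wild-type replicates 1 to 3. These groups did not overlap, and wild-type replicate 3 was again the lowest (log2 fold change 2.64, SE 1.05; edgeR quasi-likelihood adjusted p 0.225). COLQ and PRIMA1, which anchor acetylcholinesterase at the muscle endplate and on neuronal membranes, gave 0.73 (SE 0.44) and 0.20 (SE 0.18).

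Receptor genes were tested in 7 of 16 nicotinic and 3 of 5 muscarinic cases, and none passed the edgeR threshold. Their medians were 0.37 and 0.56, with 2 and 1 genes higher at an unadjusted p under 0.05 and 1 called higher by DESeq2 in each list. CHRNB2, the subunit of most high-affinity neuronal nicotinic receptors, averaged 48.3 ± 12.2 CPM in deletion and 19.9 ± 9.18 CPM in wild type (SD, n = 3 each; log2 fold change 1.28, SE 0.34). CHRNA6 and CHRNB1 gave 0.74 (SE 0.26) and 0.37 (SE 0.17). CHRM2, the muscarinic receptor that motor neurons carry beneath C-boutons, had 10.5, 24.4 and 10.7 CPM in deletion replicates 1 to 3, against 4.93, 6.94 and 2.75 CPM in wild-type replicates 1 to 3, without overlap (log2 fold change 1.63, SE 0.44; edgeR quasi-likelihood adjusted p 0.105).

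General neuron genes also stood higher in the deletion libraries. The geometric mean of 20 general neuron genes was 127, 169 and 169 CPM in deletion replicates 1 to 3, against 85.0, 101.3 and 63.3 CPM in wild-type replicates 1 to 3, without overlap. Of these 20 genes 19 had a positive log2 fold change, with a median of 0.88; none passed the edgeR threshold, 15 had an unadjusted p under 0.05, and DESeq2 called 10 higher. GAP43, ELAVL4 and THY1, a growth cone protein, a neuronal RNA-binding protein and a surface glycoprotein, gave 1.25, 1.41 and 1.37 on the log2 scale. Of the 10 cholinergic and motor neuron genes, 5 stayed without overlap after division by this mean (CHAT, SLC18A3, SLC5A7, ISL1 and MNX1). Among these 5, CHAT, ISL1 and MNX1 were kept by the filter only with the help of deletion libraries. Over all tested genes, the same division left 0.343% without overlap and higher in deletion, and 65.8% without overlap and lower. SLC18A3 was apart by little, with 20.7% of the neuron mean in the lowest deletion library against 20.6% in the highest wild-type library. The ratio of deletion to wild type was then 1.52 for ACHE, the lowest, and 5.93 for SLC5A7, the highest, with a median of 3.62. With the neuron mean as a covariate in edgeR, the log2 fold changes ran from 0.05 (SE 0.48) for ACHE to 1.81 (SE 1.56) for MNX1, and none of the 10 reached an unadjusted p under 0.05. The covariate separates the groups, so its effect and that of genotype cannot be told apart in 6 libraries.

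Excitatory and inhibitory neuron genes had another order of libraries than the 10 genes. The mean log2 CPM of 6 tested excitatory neuron genes was -0.64, -0.40 and 2.16 in deletion replicates 1 to 3, against 1.14, 1.01 and 1.26 in wild-type replicates 1 to 3. It was thus highest in deletion replicate 3, the deletion library in which the 10 genes were lowest. Of these genes 3 had a positive and 3 a negative log2 fold change. SLC17A6, the vesicular glutamate transporter, EBF1 and EBF2 gave 0.57 (SE 0.39), -0.89 (SE 0.43) and -1.58 (SE 1.01). LMX1B, chosen after its values were seen, had 0.0999, 0.0525 and 4.88 CPM in deletion replicates 1 to 3. In wild-type replicates 1 to 3 LMX1B had 1.11, 0.477 and 2.16 CPM. All 7 tested inhibitory neuron genes were positive with a median of 0.41; by edgeR 0 passed, with 0 at an unadjusted p under 0.05 and 0 called by DESeq2. SLC6A5, the neuronal glycine transporter, and SLC32A1, the vesicular transporter of GABA and glycine, gave 0.97 (SE 0.68) and 0.41 (SE 0.33).

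Markers of meninges and fibroblasts, of endothelial and mural cells, and of peripheral myelin and nerve roots had lower sums in the deletion libraries. Summed levels of 8 meningeal and fibroblast genes were 306 to 611 CPM in deletion libraries and 2303 to 2870 CPM in wild-type libraries. EdgeR called 5 of 8 tested genes lower, where 0.844% of all tested genes were called lower. Among the 5 were DCN (decorin, log2 fold change -2.70) and COL3A1 (a fibrillar collagen, -3.24). Endothelial and mural genes summed to 363 to 504 CPM in deletion and 740 to 3026 CPM in wild-type libraries. Of these edgeR called 3 of 10 lower, the smooth muscle genes ACTA2 (-5.83), TAGLN (-3.49) and MYH11 (-5.06). Peripheral myelin and nerve root genes summed to 712 to 963 CPM in deletion and 1322 to 5036 CPM in wild-type libraries. EdgeR called 1 of these 10 lower, the Schwann cell gene PRX (-5.46). Of 5 tested genes of HOX paralogs 9 to 13 edgeR called 0, with 2 higher at an unadjusted p under 0.05, and DESeq2 called 1 higher, HOXC10. It stood at 3.15, 2.41 and 3.802 CPM in deletion replicates 1 to 3, against 1.11, 0.434 and 0.138 CPM in wild-type replicates 1 to 3. HOXC9 stood at 8.24, 6.98 and 8.90 CPM in deletion against 3.34, 2.00 and 0.0918 CPM in wild type, HOXB9 gave a log2 fold change of -0.95, and the groups of HOXB9, HOXA9 and HOXD9 overlapped. The part of these markers in the levels of the 10 genes was not tested. Of the autonomic genes DBH, PHOX2A, SLC6A2 and HAND2 each had 29 reads or fewer over all libraries. TH, the tyrosine hydroxylase of catecholamine neurons, stood at 8.04, 1.63 and 4.02 CPM in deletion replicates 1 to 3, against 1.64, 1.74 and 0.689 CPM in wild-type replicates 1 to 3, with overlapping groups (log2 fold change 1.75; edgeR quasi-likelihood adjusted p 0.166, DESeq2 adjusted p 0.0466). Of the muscle receptor subunits, CHRND had no reads, CHRNG had 1, CHRNA1 had 2 and CHRNE had 23 over all libraries. CHRNB1, which is also a subunit of that receptor, had 11165 reads, with overlapping groups. Among 5 tested skeletal muscle genes, of which edgeR called 0, 1 had an unadjusted p under 0.05 in each direction and DESeq2 called 1 lower. DES (desmin, also made by smooth muscle) stood at 5.44, 3.52 and 5.14 CPM in deletion replicates 1 to 3, against 124, 258 and 22.9 CPM in wild-type replicates 1 to 3. CKM (muscle creatine kinase) had log2 fold change 0.44 and ACTA1 (skeletal actin) -0.97. Within the dorsal root ganglion list, 3 of 6 tested genes had a positive and 3 a negative log2 fold change. TRPM8, SCN9A and TRPA1 gave 1.57, 2.87 and -2.82 on the log2 scale. EdgeR called 1 of the 6 higher, TRPM8 (quasi-likelihood adjusted p 0.0497), where 0.178% of all tested genes were called higher. DESeq2 called 2 of them higher and 1 lower.

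The named genes whose profile over the 6 libraries lay closest to the mean profile of the 10 were CD24, SERTM2, CPNE6, NEFH, NECTIN4 and PALM3. Likeness was the root mean square difference of centred log2 CPM, which ran from 0.13 for CD24 to 0.28 for PALM3, and from 0.21 for ISL2 to 1.03 for SLC18A3 among the 10 themselves. NEFH, the heavy neurofilament of large axons, had 2859, 5445 and 1948 CPM in deletion replicates 1 to 3, against 917, 1382 and 180.004 CPM in wild-type replicates 1 to 3. The choice by profile largely fixes the order of the libraries, the gap between the groups and the sign of the fold change in these 6 genes, so their values are a description. NEFH had a log2 fold change of 2.05. CPNE6, a calcium-dependent membrane-binding protein of neurons, had 43.4, 72.4 and 31.2 CPM in deletion against 9.09, 12.4 and 3.21 CPM in wild-type replicates 1 to 3 (log2 fold change 2.57). CD24, a cell-surface glycoprotein, gave 2.25, and the other 3 gave between 2.19 and 2.78.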

How the data were processed

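Poly(A) RNA of 6 animals was measured in 1 library each; per the labels' protocols the libraries preserve strand. Neither aligner, counting program, annotation, build nor the use of strand in counting is stated by the sources used here. The authors deposited exon read counts per gene, with a blank where there were none, which were read as 0, and TPM, used here to compare genes with each other. The authors also deposited RPKM and a scaled signal headed CPM, both not used. Their deposited comparison table holds p-values, false discovery rates, group means of that signal and a score, the fold change with a sign.

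Symbols came from the files for 16246 genes and from a name table for 777 more; UTS2B was taken by its name in the files, as the name table gives it another ID. Counts were kept by filterByExpr (14566 genes), TMM-scaled and compared by edgeR 4.0.16 under R 4.3.3 (quasi-likelihood, robust, Benjamini-Hochberg, threshold 0.05). DESeq2 1.42.0 and limma 3.58.1 were alternatives. Standard errors come from the quasi-likelihood F statistic. A floor of 3 reads corresponds to 0.133 to 0.175 CPM and covers counting error only. Of 215 listed genes 197 had a row.

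On data simulated for maternal deletion against wild type (14426 genes), edgeR found 52 of the 100 genes with a 2-fold and 88 of the 100 with a 4-fold change, and 11 of its 151 calls were false. DESeq2, over 14566 genes, found 62 and 90 of these and made 199 calls, 47 of them false. Limma voom, over 14426 genes, found 47 and 87 and made 144 calls, 10 of them false. Each simulated gene was drawn independently around a mean common to all libraries, apart from the changes put in. Shifts shared by many genes of a library were not simulated, so these rates need not hold for the real libraries. None of the 15 library pairs came within sampling noise (chi-square per degree of freedom at least 28.1).

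The 10 genes and the lists were chosen with earlier results of these data known. Named genes were the 10, the 3 with the smallest p of each list, and the 6 closest in profile; exceptions are marked, and a few listed genes are not reported here. Alternatives covered scaling, filters, tools, the ID prefix, a neuron covariate and leaving out each library.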

Additional observations from a re-analysis of the deposited data

How the results depend on the processing

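All 169 log2 fold changes of the 10 genes over 17 alternatives were positive. ISL1 was not tested with a mean of at least 1 CPM. The alternatives refit the same libraries or part of them, so these signs are not independent. Of the 169 values 7 passed the threshold, 6 with DESeq2 and ACHE without wild-type replicate 3. The count of the 10 called higher was 6 with DESeq2 and 0 to 1 when a library was left out. Their median of 2.58 became 0.56 with the general neuron covariate, and 5 of the 10, not 9, stayed without overlap after division by the general neuron mean (0.343% of tested genes). Genes called higher in maternal deletion numbered 26, and 9 with RLE scaling, 6 with total-count scaling (beside 94 lower), 77 with no filter, 8 with a mean of at least 1 CPM, 577 with DESeq2, 95 with limma voom, 0 with the ID prefix as a block and 0 in ID prefix 15 alone. Genes called lower numbered 123, and 74 with a mean of at least 1 CPM, 796 with DESeq2, 349 with limma voom, 3 with the ID prefix as a block and 0 in ID prefix 15 alone. Counts of 0 by edgeR stood beside 1551 higher genes at an unadjusted p under 0.05 with the block, and 669 higher and 939 lower in prefix 15 alone. With 1 library left out the calls ran from 0 to 120 higher and from 0 to 639 lower, the largest without wild-type replicate 3. Bias-adjusted deviances, added after the data were seen, gave 26 and 131. The cause of these shifts was not tested. No paired analysis was possible because replicate numbers only name the animals. Low counts limit ISL1, ISL2, UTS2B, CHAT and MNX1 in wild type, where single libraries held 0 to 5 reads.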
